A study of Mus musculus with 12 samples.

Results

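The genes described here carry names given to parts of the motile cilium or to factors that assemble its dynein arms. They were followed in mouse lung across 4 groups of 3 RNA-seq libraries. Whether each of them acts in motile cilia was not checked. They were taken from the deposited gene table by name: a gene symbol starting with Cfap, Dnah, Dnai, Rsph, Drc, Dnaaf or Tekt and then a digit, with protein_coding among the transcript types listed in its row. That gave 91 of 38349 genes, and no symbol repeated. Most rows list several transcript types, and 26 of the 91 list protein_coding alone. 3 further rows matched by name but listed no coding transcript. The members were 47 Cfap genes, 15 Dnah, 9 Dnaaf, 7 Rsph, 5 Dnai, 5 Tekt and 3 Drc genes. 89 had enough counts to be tested. Cfap107 and Cfap97d1 did not, with mean levels of 0.25 and 2.83 counts per library.

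Motile cilia are the beating hairs of the multiciliated cells that line the airways and move mucus. Their core, the axoneme, is a ring of doublet microtubules around a central pair. Outer and inner dynein arms, built from heavy chains (Dnah) and intermediate chains (Dnai), slide the doublets. Radial spokes (Rsph) and the nexin-dynein regulatory complex (Drc) control that sliding. Tektins (Tekt) and many Cfap proteins line the inside of the doublets or join the other structures, and Dnaaf proteins assemble dynein arms in the cytoplasm before they enter the cilium.

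All libraries came from lung of mice labelled wild type. The groups were Control, ALI (acute lung injury; the series title gives hypoxia/LPS as the inducer), MSC and tpMSC; the design text calls the last 2 treated groups. Neither MSC nor tpMSC is spelled out in the labels, and the sources used here give no dose, time, age or sex. Whether the 3 libraries of a group are separate animals is not stated; the p-values reflect only library-to-library spread, which may be technical. Poly(A) RNA was sequenced, with 53083002 to 70209229 counts per library. Levels are the deposited FPKM (fragments scaled to gene length and library size), which allow comparison between genes. Fold changes are log2 values from edgeR on the deposited counts, with their standard error (SE), and a gene was called where its Benjamini-Hochberg adjusted p over the 22915 genes tested was under 0.05. The lung label was checked with 8 alveolar type 2 cell markers, whose summed level was 9340 to 17800 FPKM per library with none at 0, and 19 ciliated cell markers were found at 414 to 863 FPKM.

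Many ciliary genes carry a binding site for RFX transcription factors close to their start. 64 of the 91 members had a RefSeq promoter window (GRCm38.p6, 250 bases before to 50 after the start). The hexamer GTTGCC, an arm of that site, lay on either strand in a window of 26 of those 64 members (40.6%). Of the 14084 coding genes with a window, 2075 had it (14.7%). A gene with several windows was counted once. Dnaaf6, 1 of the 26, was scored on a window of chromosome 1, although the gene lies on chromosome X. The hexamer is shown here for Cfap161 and Tekt2, whose levels separated ALI from Control and from tpMSC. It is also shown for the outer arm chain Dnai2 and for Cfap20, which was called lower than Control in all 3 other groups. Each sequence is the 250 bases before the start, written 5′ to 3′ on the strand of the gene, and the capitals mark the hexamer or its reverse complement GGCAAC. The windows are chr7:83794840-83795089 (minus strand) for Cfap161, chr4:126325689-126325938 (minus) for Tekt2, chr11:114727169-114727418 (plus) for Dnai2 and chr8:95434870-95435119 (minus) for Cfap20.
Cfap161: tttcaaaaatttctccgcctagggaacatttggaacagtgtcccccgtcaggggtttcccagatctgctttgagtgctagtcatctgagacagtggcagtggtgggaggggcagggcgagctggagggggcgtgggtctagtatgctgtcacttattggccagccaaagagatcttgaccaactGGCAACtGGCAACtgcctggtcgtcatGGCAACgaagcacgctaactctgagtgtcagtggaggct
Tekt2: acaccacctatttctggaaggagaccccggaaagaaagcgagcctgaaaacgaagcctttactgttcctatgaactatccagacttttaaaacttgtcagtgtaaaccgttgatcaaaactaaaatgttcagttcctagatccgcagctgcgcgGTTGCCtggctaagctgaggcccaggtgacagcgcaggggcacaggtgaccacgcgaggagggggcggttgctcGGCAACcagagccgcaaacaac
Dnai2: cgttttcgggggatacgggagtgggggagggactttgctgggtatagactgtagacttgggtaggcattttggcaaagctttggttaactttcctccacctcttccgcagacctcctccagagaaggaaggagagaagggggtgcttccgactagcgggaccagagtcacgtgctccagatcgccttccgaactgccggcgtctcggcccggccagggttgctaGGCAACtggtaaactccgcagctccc
Cfap20: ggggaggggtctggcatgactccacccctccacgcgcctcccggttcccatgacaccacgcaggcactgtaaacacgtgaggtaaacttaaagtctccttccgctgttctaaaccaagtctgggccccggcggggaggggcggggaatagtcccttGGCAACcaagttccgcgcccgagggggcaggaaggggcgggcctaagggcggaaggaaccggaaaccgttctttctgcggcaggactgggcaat
The first bases of the 3 matches in Cfap161 are at -66, -59 and -39 from the start, those in Tekt2 at -96 and -22 (a second RefSeq start of Tekt2 puts them at -138 and -64), that in Dnai2 at -26 and that in Cfap20 at -94. 5 of the 26 tested members with the hexamer were called lower in ALI than Control, and 6 of the 37 tested members whose window lacks it, against 19.6% of all genes. In tpMSC against ALI, 6 of the 26 and 6 of the 37 were called higher, against 11.6% of all genes.

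9 motif forms were searched on both strands, and they overlap one another, so their counts are not separate results. Among the 64 members and all coding genes with a window respectively, GTTGCCA was in 23.4% and 4.92%, GTTGCCATGG in 3.12% and 0.625%, and GTTNCCATG in 9.38% and 1.84%. The full inverted repeat GTTNCCNNGGNAAC was in 4.69% and 0.582%, the looser GTNNCCNNGGNNAC in 14.1% and 2.61%, and GTTNCCATGGNAAC in none of the members and 0.135% of all. Dnaaf6, with its window on another chromosome, is among the members with the full and the looser repeat. For forkhead factors, the family of the ciliary regulator Foxj1, GTAAACA was in 6.25% and 3.25% and TGTTGT in 12.5% and 11.2%. The hexamer was singled out after these values were seen. A match is a match of letters in this window, and no binding was measured.

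Levels of the members ranged from near 0 to 14.2 FPKM (mean of 12 libraries). Cfap36 was highest at 14.2 FPKM, followed by Cfap298 at 13.4, Rsph1 and Cfap20 at 11.0 each, Cfap141 at 10.8, Cfap126 at 9.21, Cfap418 at 9.17, Rsph3a at 7.67, Tekt1 at 7.14 and Dnaaf10 at 6.76. The large heavy chain genes were low per length, between 0.123 and 2.53 FPKM for the 15 Dnah genes. The Dnai genes lay between 0.75 and 4.28, the Drc genes between 3.08 and 3.99, the Dnaaf genes between 0.784 and 6.76, the Tekt genes between 0.36 and 7.14 and the Rsph genes between 0.711 and 11.0 FPKM. Summed over the 91 members, the level was 269, 270 and 349 FPKM in Control replicates 1 to 3, and 245, 218 and 246 in ALI. It was 335, 265 and 291 in MSC and 350, 282 and 301 in tpMSC. All 3 ALI sums lay below all 9 others.

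**Figure D1:**
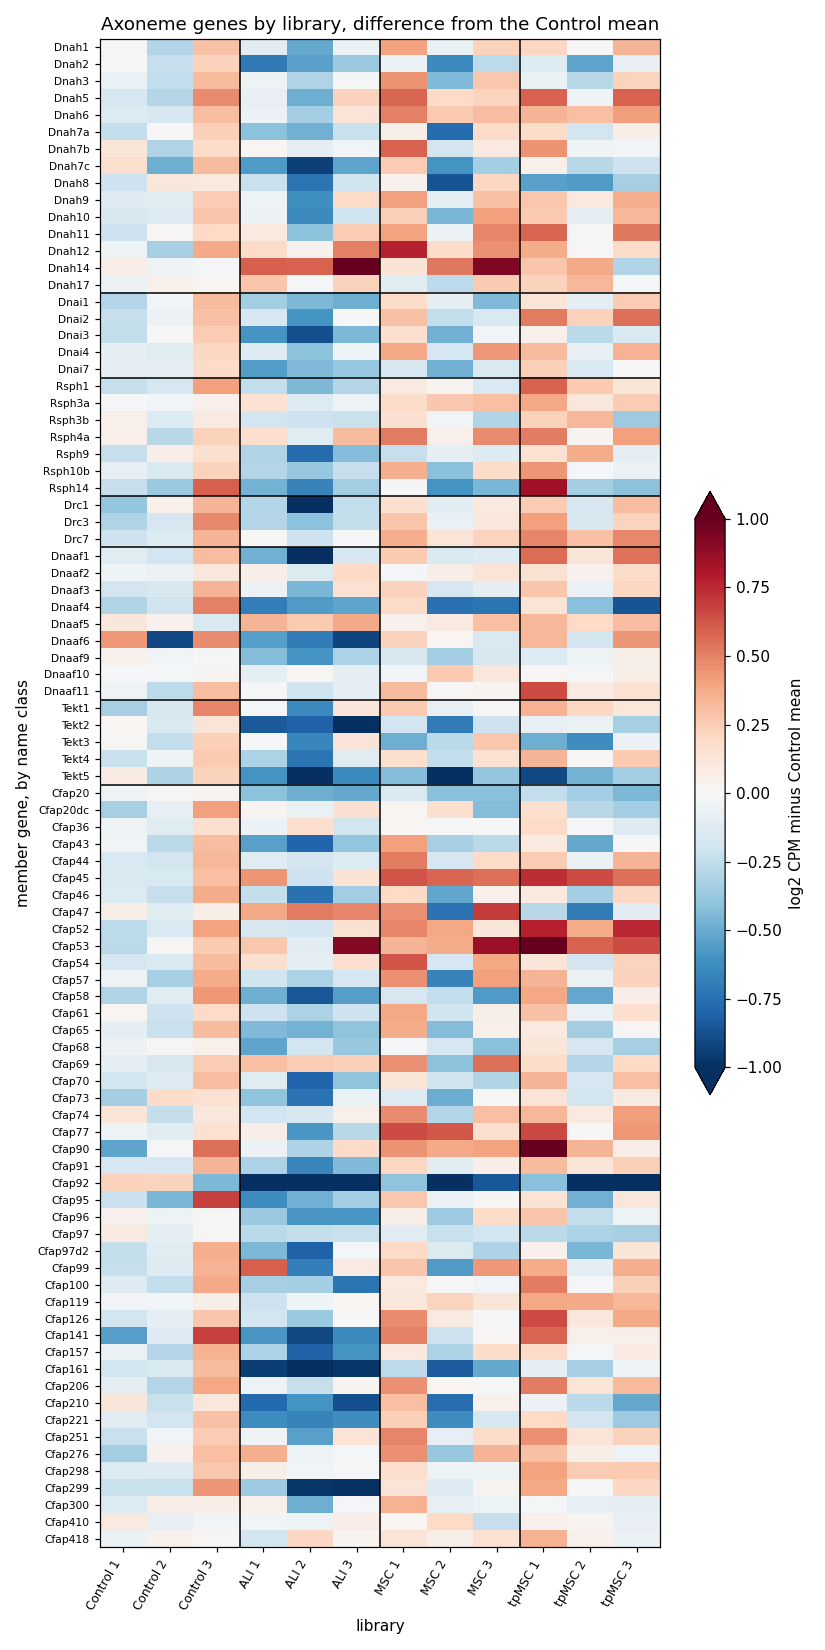
Each row is one of the 89 tested members, grouped by name class, and each column a library; colour is the log2 CPM (counts scaled to library size) minus the mean of the 3 Control libraries, cut at -1 and 1. Control replicate 3 is red in most rows and ALI replicate 2 blue in most rows, and the shift is shared across the name classes.

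Libraries inside a group differed in a way that most members shared. Control replicate 3 was the highest Control library for 75 of the 89 members (84.3%; 35.3% of all genes tested), and ALI replicate 2 was the lowest ALI library for 66 (74.2%; 38.0% of all genes). MSC replicate 1 was the highest of its group for 63 (70.8%; 29.8%) and MSC replicate 2 the lowest for 63 (70.8%; 36.0%). tpMSC replicate 1 was highest for 58 (65.2%; 32.8%) and tpMSC replicate 2 lowest for 62 (69.7%; 31.3%). Control replicate 2 was the lowest of its group for 47 (52.8%, against 29.6% of all genes), so replicate 2 was most often lowest in all 4 groups. The median member stood 0.28 above the Control mean in Control replicate 3, and 0.12 and 0.13 below it in replicates 1 and 2, on the log2 scale. In ALI the medians were -0.19, -0.46 and -0.14, in MSC 0.23, -0.17 and 0.06, and in tpMSC 0.28, -0.05 and 0.12. In bulk lung, fewer multiciliated cells and less RNA per cell cannot be told apart.

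Markers of other cells shared part of this pattern. Control replicate 3 was the highest Control library for 18 of 19 other ciliated cell markers, 12 of 12 club cell markers and 7 of 7 tested cardiac muscle markers. ALI replicate 2 was the lowest of its group for 18 of the 19 ciliated markers. tpMSC replicate 1 was the highest for 15 of the 19 ciliated markers, while the cardiac markers were highest in tpMSC replicate 3 (7 of 7). The club cell markers did not follow the members throughout: ALI replicate 2 was lowest for 6 of 12, MSC replicate 2 was highest for 6 and MSC replicate 3 lowest for 11, and tpMSC replicate 1 was highest for 4 and tpMSC replicate 2 lowest for 9. Of 7 basal airway cell markers, 2 were highest in Control replicate 3, and of 8 alveolar type 2 cell markers 0 were. Where leaving out a library changed the count of all members called in a comparison, the changed counts or their range are given below. Counts for a single name class and for the other gene lists are given with all libraries only. How far those counts depend on such a library is not shown.

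**Figure D2:**
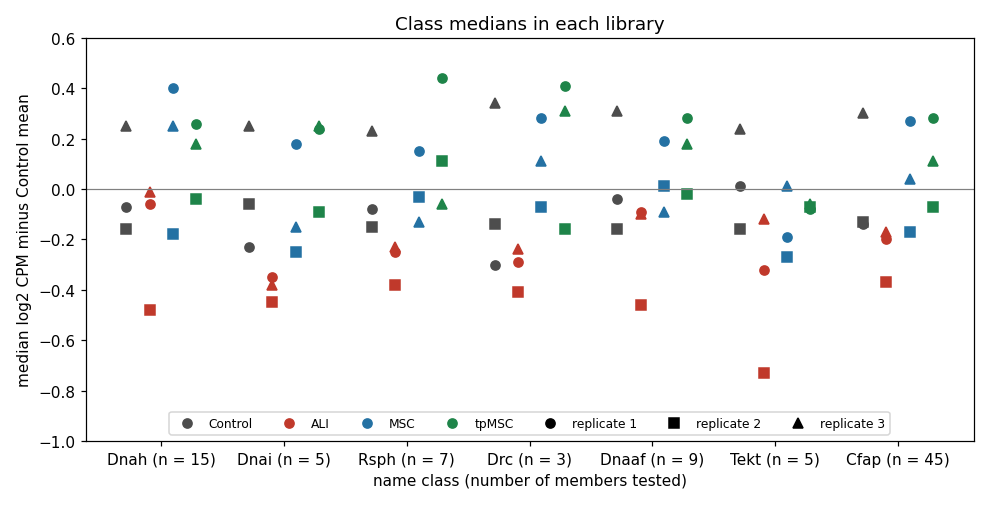
Points are the median log2 CPM of a name class in one library minus the Control mean, by class (x axis, with the number of members tested) and group (colour); the marker shape is the replicate. ALI replicate 2 has the lowest ALI value in all 7 classes, down to -0.73 for Tekt.

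Axoneme genes were mostly lower in injured than in Control lung. 19 of the 89 members were called lower in ALI (21.3%), against 19.6% of all genes tested, and 2 were called higher, against 20.2% of all genes. 74 of the 89 estimates were below 0; the median log2 fold change was -0.25, against -0.02 over all genes. The share called lower was close to the background, and the share called higher, 2.25%, was below it. The count of 19 fell to 6 without Control replicate 3, 9 without ALI replicate 2, 11 without ALI replicate 3 and 12 without ALI replicate 1. The 2 calls in the higher direction fell to 0 without Control replicate 3 or without ALI replicate 3, and to 1 without Control replicate 1 or 2.

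After tpMSC, members were mostly higher than in untreated injury. 21 of the 89 were called higher in tpMSC than ALI (23.6%), against 11.6% of all genes, and 0 were called lower, against 11.5% of all genes; at an unadjusted p under 0.05 these counts were 38 and 2, and DESeq2 called 28 higher and 1 lower. 78 of the 89 estimates were above 0, with a median of 0.40 against 0.01 over all genes. The count of 21 fell to 6 without tpMSC replicate 1 and to 9 without ALI replicate 2. This comparison uses the same ALI libraries as the one against Control, so the values of the 2 comparisons are not independent and are given side by side.

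After MSC, members lay above ALI too, but single genes seldom passed the test. 1 of 89 was called higher in MSC than ALI, against 5.03% of all genes, and 0 lower, against 5.21%; 23 were higher and 0 lower at an unadjusted p under 0.05, and DESeq2 called 10 higher and 0 lower. 83 of the 89 estimates were above 0, with a median of 0.30 against 0.02 over all genes. The count of 1 became 12 without MSC replicate 2 and 0 without MSC replicate 1, ALI replicate 2 or ALI replicate 3. tpMSC and MSC were not separated: 0 members were called in either direction (0.0175% of all genes higher and 0.0131% lower), 3 had an unadjusted p under 0.05, all higher in tpMSC, DESeq2 called 0, and the smallest adjusted p was 0.326. The median estimate was 0.06, and single members had a median SE of 0.194.

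**Figure D3:**
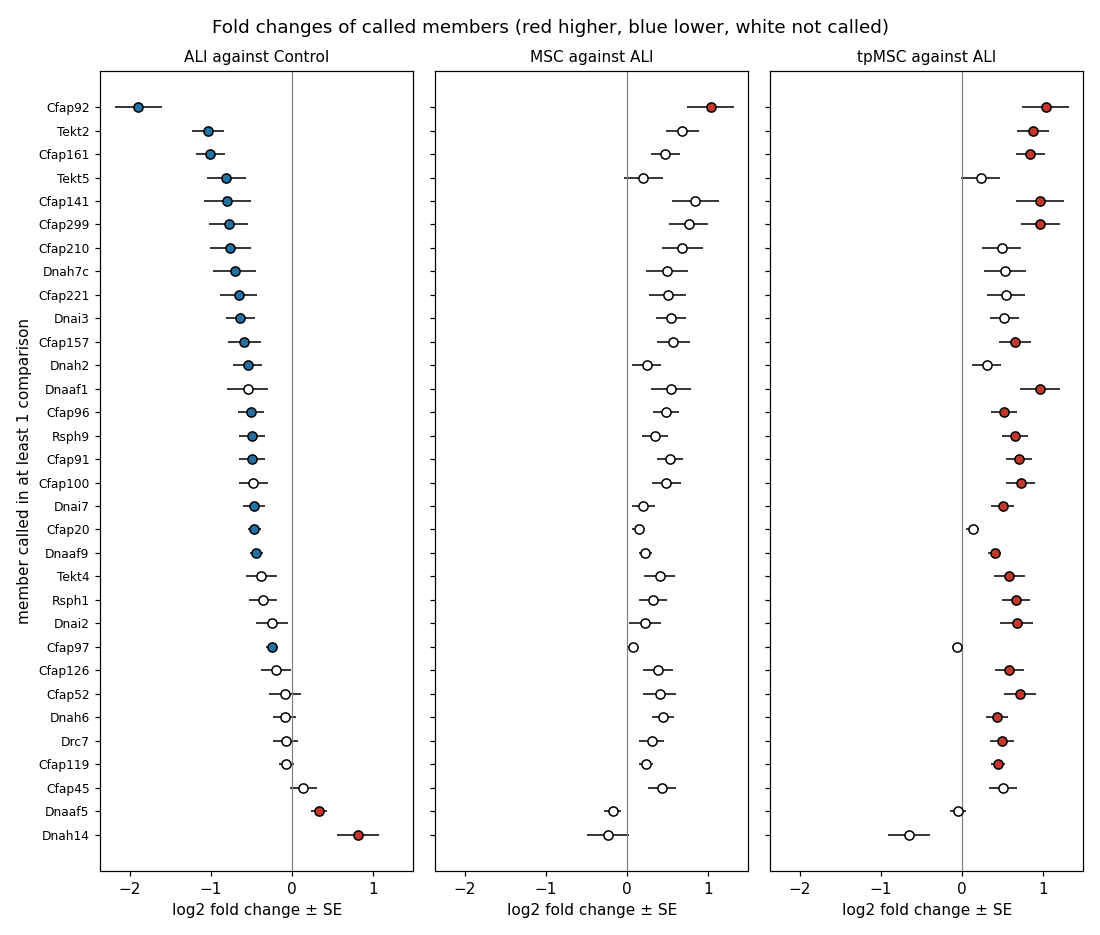
Points are log2 fold changes with SE (x axis) of the 32 members called in at least 1 of the 6 comparisons (y axis), in 3 comparisons; red and blue fill mark members called higher and lower, white those not called. In the middle panel 1 member is filled, in the outer panels 21 each.

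Of the outer dynein arms, which give the beat its power, no heavy or intermediate chain described here was called in ALI against Control. Dnah5, a heavy chain of the outer arm, was at 1.67, 1.54 and 2.62 FPKM in Control, 1.73, 1.28 and 2.12 in ALI, 2.83, 2.15 and 2.16 in MSC and 2.81, 1.78 and 2.75 in tpMSC. The groups overlapped, and neither ALI against Control (-0.12, SE 0.24, adjusted p = 0.726) nor tpMSC against ALI (0.49, SE 0.24, adjusted p = 0.169) was called. The outer arm heavy chains Dnah9 and Dnah11 were not called either, at -0.13 and 0.00 in ALI against Control. For the intermediate chain Dnai1, ALI was at 2.63, 2.42 and 2.36 FPKM and Control at 2.84, 3.40 and 4.34, with no overlap but no call (-0.45, SE 0.18, adjusted p = 0.0706). The other outer arm intermediate chain, Dnai2, was at 2.06, 2.32 and 2.98 FPKM in Control, 2.08, 1.52 and 2.32 in ALI, 2.96, 2.02 and 2.15 in MSC and 3.44, 2.75 and 3.42 in tpMSC. Every tpMSC library was above every ALI library, and the gene rose by 0.67 (SE 0.20, adjusted p = 0.0291). That call was lost without ALI replicate 1 or 2 or tpMSC replicate 1 or 3 (highest adjusted p over its alternatives 0.097).

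Of the 15 Dnah genes, 2 were called lower and 1 higher in ALI, and of the 5 Dnai genes 2 lower and 0 higher. Over all genes the shares were 19.6% lower and 20.2% higher. Those called, described here with Dnah6, include genes of the inner arms, which shape the bend. Dnah1, Dnah3, Dnah7a, Dnah7b, Dnah10 and Dnah12 were not called in ALI against Control, with estimates between -0.38 and 0.23. Dnai3, an inner arm intermediate chain, was at 4.17, 4.93 and 5.89 FPKM in Control and 3.17, 2.54 and 3.47 in ALI, without overlap, and at 5.57, 3.50 and 4.78 in MSC and 5.08, 3.98 and 4.32 in tpMSC. It fell in ALI by 0.64 (SE 0.18, adjusted p = 0.015), a call lost without Control replicate 3 or ALI replicate 2 (highest adjusted p 0.0659). Dnai7, another dynein intermediate chain, fell in ALI (-0.47, SE 0.14, adjusted p = 0.0206) and rose after tpMSC (0.50, SE 0.14, adjusted p = 0.0255); the first call was lost without Control replicate 3 or ALI replicate 1, the second without ALI replicate 1 or 2 or tpMSC replicate 1 and with limma on FPKM. The inner arm heavy chain Dnah2 went from 1.07 ± 0.175 FPKM (SD, n = 3) in Control to 0.697 ± 0.0802 in ALI (-0.55, adjusted p = 0.0286; lost without Control replicate 1 or 3 or ALI replicate 1 or 2, highest adjusted p 0.113). Dnah6 was called only in tpMSC against ALI (0.43, SE 0.14, adjusted p = 0.0439), a call lost under 8 of 14 alternatives, among them no filter, limma on FPKM and without ALI replicate 1 or 2 and without any 1 of the tpMSC libraries. Dnah7c was called lower in ALI (-0.71, adjusted p = 0.0452), but it has the near copies Dnah7a and Dnah7b, between which the counting could split reads, and the call was lost under 8 of 13 alternatives, including no filter, limma on FPKM and without ALI replicate 1, 2 or 3 or Control replicate 1 or 3. Dnah14 was called higher in ALI (0.81, SE 0.26, adjusted p = 0.027) at a level of 0.16 ± 0.0346 FPKM against 0.0933 ± 0.00577 in Control, and without any 1 of the Control libraries or ALI replicate 3 or with limma on FPKM it was not called (highest adjusted p 0.108).

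Of the 7 radial spoke genes, 1 was called lower in ALI (19.6% of all genes) and 2 higher after tpMSC (11.6% of all genes). Rsph9, a spoke head protein, was at 5.04, 6.20 and 6.63 FPKM in Control, 4.63, 3.29 and 4.20 in ALI, 5.04, 5.52 and 5.31 in MSC and 6.48, 7.46 and 5.37 in tpMSC. ALI lay below the 3 other groups with no overlap. The fall was 0.50 (SE 0.16, adjusted p = 0.0275), lost without Control replicate 2 or 3 or ALI replicate 2 or 3 (highest adjusted p 0.098), and the rise after tpMSC was 0.65 (SE 0.16, adjusted p = 0.0137), lost without tpMSC replicate 2 (adjusted p = 0.0638, the highest over its alternatives). Rsph1, another spoke head protein and the most abundant spoke gene, was at 9.38, 9.75 and 14.65 FPKM in Control, 8.96, 7.65 and 8.65 in ALI, 11.76, 11.16 and 9.80 in MSC and 16.41, 12.78 and 11.60 in tpMSC. It rose after tpMSC (0.66, SE 0.17, adjusted p = 0.0171; lost without ALI replicate 2 or tpMSC replicate 1, highest adjusted p 0.0804) and was not called in ALI against Control (-0.36, adjusted p = 0.125), although the ranges do not overlap. Rsph4a, also of the spoke head, gave 0.12 (SE 0.18, adjusted p = 0.642) in ALI against Control. Rsph3a and Rsph3b are near copies, and their counts are uncertain for that reason; neither was called. In the nexin-dynein regulatory complex, Drc1 and Drc3 were not called (-0.53 and -0.36 in ALI against Control, adjusted p = 0.0979 and 0.177). Drc7, of the same complex, was called higher in tpMSC than ALI (0.49, SE 0.15, adjusted p = 0.038), a call lost under 7 of 14 alternatives, namely no filter and without any 1 of the 6 libraries.

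Among genes for proteins inside the doublet microtubules, calls for Tekt2 and Cfap161 held under every alternative. Tekt2, a tektin, was at 4.6, 4.07 and 5.00 FPKM in Control, 2.43, 2.45 and 1.49 in ALI, 3.98, 2.76 and 3.87 in MSC and 4.24, 4.18 and 3.48 in tpMSC (chr4:126322121-126325688, minus strand, GRCm38). ALI lay below all other libraries. The gene fell by 1.04 in ALI (SE 0.20, adjusted p = 0.00176) and rose by 0.87 after tpMSC (SE 0.20, adjusted p = 0.00979); both calls held under all 14 alternatives, and the MSC estimate of 0.68 had an adjusted p of 0.0561. 20.8% of its exon bases are shared with Gm12945 on the opposite strand. The tektin Tekt1 was not called (-0.19, adjusted p = 0.549), and Tekt5 was called lower in ALI (-0.81, SE 0.24, adjusted p = 0.0199; lost without Control replicate 1 or 3 or ALI replicate 2). Tekt5 stayed between 1.27 and 1.99 FPKM in the MSC and tpMSC libraries, against 2.11 to 3.11 in Control, and none of its other comparisons was called. Tekt4 was called higher after tpMSC (0.58, SE 0.19, adjusted p = 0.0456), a call lost under 7 of 14 alternatives, including no filter, only the 6 libraries and without ALI replicate 1 or 2 or any 1 of the tpMSC libraries.

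Cfap161, a microtubule inner protein, was also lowest in ALI. It was at 2.48, 2.52 and 3.53 FPKM in Control, 1.40, 1.29 and 1.37 in ALI, 2.35, 1.56 and 1.94 in MSC and 2.62, 2.17 and 2.64 in tpMSC (chr7:83774101-83794880, minus strand, GRCm38). The 3 ALI values were the lowest of the 12. It fell by 1.01 in ALI (SE 0.18, adjusted p = 0.000854) and rose by 0.84 after tpMSC (SE 0.18, adjusted p = 0.00548), and both calls held under all 14 alternatives. MSC lay between, at 0.47 above ALI (adjusted p = 0.117) and -0.53 against Control (adjusted p = 0.0548), neither called.

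Cfap20, another protein of the doublet wall, followed a different course. It was at 13.11, 13.51 and 13.79 FPKM in Control, 9.80, 9.11 and 9.07 in ALI, 12.10, 9.99 and 9.94 in MSC and 11.19, 10.34 and 9.55 in tpMSC (chr8:95420249-95434869, minus strand, GRCm38). All 9 other libraries were below all 3 Control libraries. The fall in ALI was 0.47 (SE 0.08, adjusted p = 0.00079), held under all 14 alternatives. It was also called lower than Control in MSC (-0.32, adjusted p = 0.0178) and tpMSC (-0.34, adjusted p = 0.0165), while MSC and tpMSC against ALI gave 0.14 and 0.13, neither called. The MSC call was lost with only the 6 libraries compared and without Control replicate 2 or 3 or MSC replicate 2 or 3, and the tpMSC call without Control replicate 2 or 3 or tpMSC replicate 3. Cfap97 was the other member called lower than Control in both ALI (-0.25, SE 0.07, adjusted p = 0.0116; lost without Control replicate 1 or ALI replicate 1) and tpMSC (-0.31, SE 0.07, adjusted p = 0.0107; lost without Control replicate 1).

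Cfap92 had the largest fold change of all members. It was at 2.21, 2.18 and 1.38 FPKM in Control, 0.48, 0.52 and 0.47 in ALI, 1.43, 0.68 and 1.03 in MSC and 1.38, 0.91 and 0.78 in tpMSC (chr6:87675593-87690847, minus strand, GRCm38). Unlike most members it was lowest, not highest, in Control replicate 3. It fell by 1.9 in ALI (SE 0.29, adjusted p = 0.000353), held under all 14 alternatives, and it was the 1 member called higher in MSC than ALI (1.03, SE 0.29, adjusted p = 0.0439). That MSC call was lost without any 1 ALI library and without MSC replicate 1 or 3 (highest adjusted p 0.177), and also with no filter, with only the 6 libraries compared and with limma on FPKM, 9 of 14 alternatives in all. The tpMSC call (1.03, adjusted p = 0.0246) was lost without any 1 ALI library or tpMSC replicate 1 and with limma on log2(FPKM + 1). 52.3% of its exon bases lie opposite E230015B07Rik. The libraries were made with a dUTP second strand, but the sources used here give no strand setting for the counting. Whether the deposited counts keep reads of the 2 genes apart is therefore not known.

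**Figure D4:**
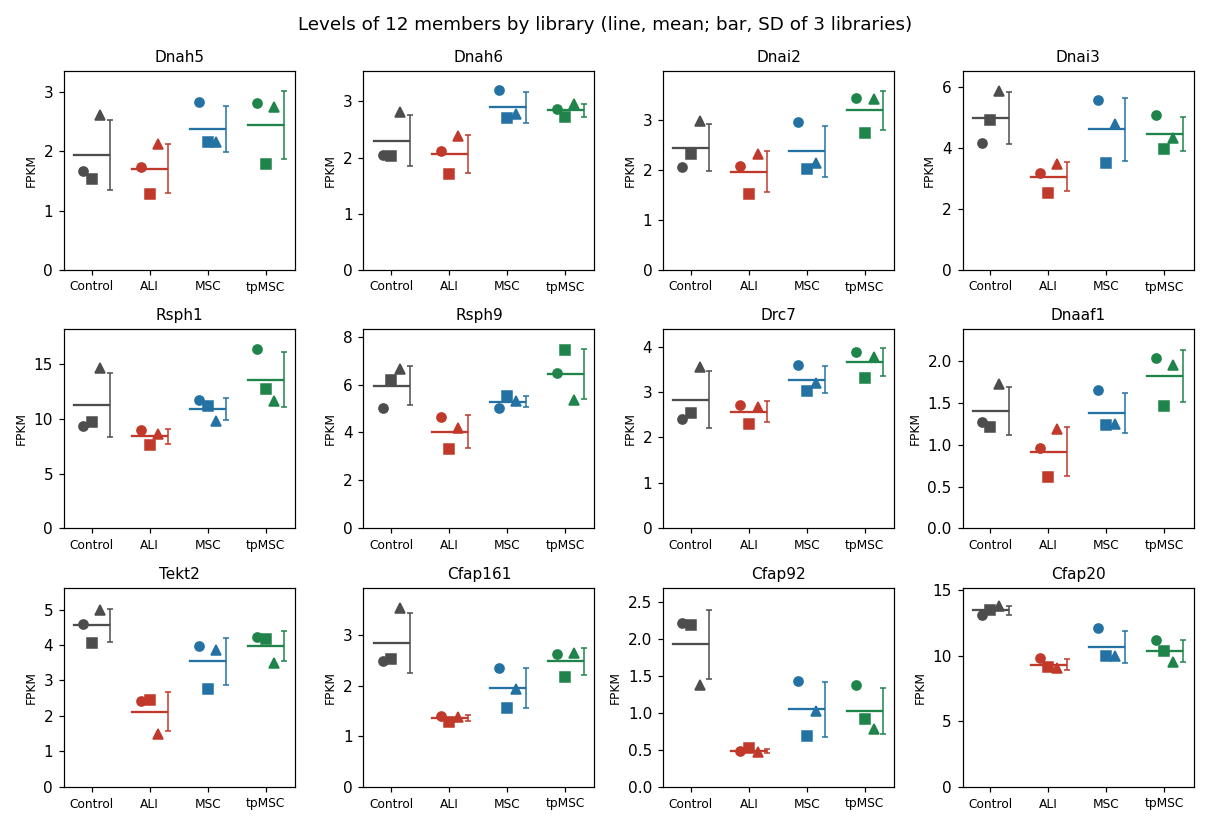
Deposited FPKM (y axis, from 0) of 12 members in each library by group (x axis); the horizontal line is the mean and the bar the SD of 3 libraries, and the marker shape is the replicate. Cfap161, Tekt2 and Rsph9 show all ALI libraries below all others, Cfap20 shows all Control libraries above all others, and Dnah5 shows overlapping groups.

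Other Cfap genes were called in ALI against Control, in tpMSC against ALI or in both. Cfap91, a spoke base protein, went from 1.92 ± 0.421 FPKM in Control to 1.31 ± 0.162 in ALI and was at 2.17 ± 0.17 in tpMSC (SD, n = 3). Its rise after tpMSC (0.70, SE 0.16, adjusted p = 0.00892) held under all 14 alternatives; its fall in ALI (-0.49, adjusted p = 0.0299) was lost with only the 6 libraries compared and without Control replicate 3 or ALI replicate 2 or 3. Cfap141, a microtubule inner protein, ranged from 7.52 to 17.70 FPKM within Control and from 5.59 to 7.06 in ALI; its fall (-0.80, adjusted p = 0.0494) was lost under 11 of 14 alternatives, including no filter, limma on FPKM and without any 1 ALI library or Control replicate 2 or 3, and its rise after tpMSC (0.96, adjusted p = 0.0365) under 6 of 14, including no filter and without any 1 ALI library or tpMSC replicate 1 or 2. Cfap299 (-0.78 and 0.96), Cfap96 (-0.51 and 0.52) and Cfap157 (-0.59 and 0.65) were called lower in ALI and higher after tpMSC as well, with adjusted p between 0.0131 and 0.039 in these 6 tests. None of those 6 calls held under every alternative. In ALI against Control all 3 were lost without Control replicate 3, ALI replicate 2 or ALI replicate 3, Cfap96 also without Control replicate 1 or 2 and Cfap157 without Control replicate 1 or with no filter. In tpMSC against ALI all 3 were lost without ALI replicate 3 or tpMSC replicate 1, Cfap96 also without ALI replicate 1 or 2 or tpMSC replicate 3, with no filter or with only the 6 libraries, and Cfap157 without ALI replicate 2 or tpMSC replicate 2 or 3. Cfap210, a microtubule inner protein (-0.76, adjusted p = 0.0268), and Cfap221, of the central pair (-0.66, adjusted p = 0.0393), were called in ALI against Control only; both calls were lost without Control replicate 1 or 3 or ALI replicate 1 or 3, and that of Cfap221 also without ALI replicate 2 and with no filter.

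4 further Cfap genes were called higher in tpMSC than ALI and were not called in ALI against Control. Cfap119 was at 3.82, 3.83 and 4.07 FPKM in Control, 3.26, 3.62 and 3.78 in ALI, 4.23, 4.50 and 4.19 in MSC and 5.07, 4.92 and 4.75 in tpMSC. All tpMSC libraries were above all 9 others. The rise over ALI (0.44, SE 0.09, adjusted p = 0.00376) held under all 14 alternatives, and Cfap119 was also above Control (0.37, SE 0.09, adjusted p = 0.0159; lost without Control replicate 1 or 2). 25.6% of its exon bases lie opposite Phkg2. Cfap52, a microtubule inner protein (0.71, adjusted p = 0.0227; lost without ALI replicate 1 or 2 or tpMSC replicate 1 or 3), Cfap100, of an inner arm regulator (0.72, adjusted p = 0.0147; lost without ALI replicate 3 or tpMSC replicate 1), and Cfap126 (0.58, adjusted p = 0.037; lost with no filter and without ALI replicate 1 or 2 or tpMSC replicate 1 or 3) completed the set. Cfap45, a microtubule inner protein, was called against Control, in MSC (0.57, adjusted p = 0.0342) and tpMSC (0.63, adjusted p = 0.0256). It was at 1.27, 1.26 and 1.74 FPKM in Control and 2.00 to 2.34 in the 6 MSC and tpMSC libraries, without overlap. Both calls were lost without Control replicate 1 or 2, the MSC call also with no filter and without any 1 MSC library, and the tpMSC call without tpMSC replicate 1 or 2.

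Of the 9 Dnaaf assembly factors, 1 was called lower in ALI (19.6% of all genes) and 1 higher (20.2% of all genes). After tpMSC, 2 were called higher than in ALI (11.6% of all genes). Dnaaf9, which keeps outer arm dynein inactive on its way to the cilium, was at 7.20, 6.85 and 6.99 FPKM in Control, 5.02, 4.45 and 5.39 in ALI, 6.28, 5.5 and 6.16 in MSC and 6.29, 6.58 and 7.07 in tpMSC (chr2:130706200-130906406, minus strand, GRCm38). ALI was below the 3 other groups with no overlap. The fall in ALI was 0.44 (SE 0.08, adjusted p = 0.00136) and the rise after tpMSC 0.40 (SE 0.08, adjusted p = 0.00522), both held under all 14 alternatives. Dnaaf5, a factor for both arm types, was the 1 assembly member called higher in ALI, from 4.48 ± 0.408 to 5.39 ± 0.241 FPKM (0.33, SE 0.10, adjusted p = 0.0206; lost without Control replicate 3 or ALI replicate 3). Dnaaf1 was at 0.96, 0.61 and 1.19 FPKM in ALI and 2.04, 1.47 and 1.96 in tpMSC, without overlap, and rose by 0.96 (SE 0.25, adjusted p = 0.0165; lost without tpMSC replicate 1, adjusted p = 0.0607). 20.7% of its exon bases are shared with Taf1c. Dnaaf3 gave -0.12 (adjusted p = 0.656) in ALI against Control, and Dnaaf6 had the widest spread inside a group, at 1.11, 0.43 and 1.15 FPKM in Control.

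Against Control, few members differed in the treated groups. In MSC 1 was called higher (Cfap45) and 1 lower (Cfap20), against 10.7% and 8.00% of all genes, and the median was 0.02. In tpMSC 2 were called higher (Cfap45 and Cfap119) and 2 lower (Cfap20 and Cfap97), against 9.10% and 6.79%, and the median was 0.13. A member not called there is not shown to be at the Control level: the median SE was 0.195 and ranged up to 0.36. The counts turned on single libraries, with 7 called higher in tpMSC and 3 in MSC without Control replicate 3, and 0 in either without Control replicate 1 or 2; tpMSC gave 1 higher without tpMSC replicate 1, and MSC gave 0 higher without any 1 MSC library. The count lower in MSC was 3 without MSC replicate 1 and 0 without Control replicate 2, MSC replicate 2 or MSC replicate 3, and that lower in tpMSC was 1 without Control replicate 1 or 2 or tpMSC replicate 3. The largest estimates were those of Cfap92 (-0.87 in both) and, in tpMSC, Cfap53 (0.81, adjusted p = 0.0672); Cfap47 gave the lowest estimate in tpMSC against ALI (-0.82, adjusted p = 0.0706), and none of these was called.

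Axoneme genes without these name prefixes were counted in lists of their own; the calls named for them held under all alternatives unless stated. Over all genes, 19.6% were called lower and 20.2% higher in ALI, and 11.6% higher after tpMSC. Of 15 inner arm, ruler and regulatory complex genes, 7 were called lower in ALI and 0 higher, with a median of -0.45, and 6 higher after tpMSC with a median of 0.59. Iqcd, of the regulatory complex, fell from 1.47 ± 0.235 to 0.46 ± 0.0265 FPKM (-1.60, SE 0.23, adjusted p = 0.00024) and rose after tpMSC (0.98, adjusted p = 0.0111); Fbxl13 of the same complex fell by 0.92 (adjusted p = 0.00248) and rose by 0.89 (adjusted p = 0.00633). Of 12 outer arm docking and light chain genes, 5 were called lower and 1 higher in ALI (median -0.24) and 5 higher after tpMSC (median 0.42). The light chains Dnal4 (-0.57, adjusted p = 0.000948), Dnal1 (-0.52, adjusted p = 0.00177) and Dynlrb2 (-0.84, adjusted p = 0.00391) were among those that fell, and all 3 rose after tpMSC (0.43, 0.44 and 0.81; adjusted p = 0.0104, 0.00932 and 0.00928). Of 15 further microtubule inner protein genes, 5 were called lower in ALI (median -0.45), with 11 of the 15 estimates below 0. Nme7 was the 1 called higher (0.48, adjusted p = 0.0112, lost without Control replicate 1), and 6 were called higher after tpMSC (median 0.52). Of 18 central pair and spoke partners 1 was called lower in ALI, Spef1, from 8.0 ± 0.102 to 4.52 ± 0.458 FPKM (-0.76, SE 0.13, adjusted p = 0.000554). All 18 estimates were below 0, with a median of -0.39. After tpMSC 3 were called higher, Spef1 by 0.73 (adjusted p = 0.00187), and 17 of the 18 estimates were above 0 (median 0.51). Of 27 intraflagellar transport genes, which carry cargo along the cilium, 8 were called lower and 2 higher in ALI (median -0.27). After tpMSC 5 of them were called higher (median 0.21). Of 7 assembly factors without the prefix, 1 was called lower and 2 higher in ALI, and 1 was called higher after tpMSC.

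The regulators of multiciliated cells were called in both directions. Of 14 genes, 4 were called higher (20.2% of all genes) and 1 lower (19.6% of all genes) in ALI, with a median of 0.16. Against Control, 3 were called higher in MSC (10.7% of all genes) and 6 in tpMSC (9.10%). The gene called lower was Rfx2, a factor that binds the motif shown in the promoters. It was at 2.23, 2.18 and 2.04 FPKM in Control, 1.35, 1.07 and 1.18 in ALI, 1.95, 1.43 and 1.94 in MSC and 2.74, 2.37 and 1.81 in tpMSC. All ALI values were the lowest of the 12; it fell by 0.78 (SE 0.16, adjusted p = 0.00225) and rose by 0.91 after tpMSC (SE 0.16, adjusted p = 0.00197), and both calls held under all 14 alternatives. Foxj1, the master regulator of motile cilia, Ccno and Mcidas, which act in centriole amplification, were picked after their values were seen. Foxj1 was at 15.03, 14.82 and 23.37 FPKM in Control, 26.81, 17.51 and 30.33 in ALI, 29.46, 30.80 and 33.86 in MSC and 42.04, 34.90 and 34.10 in tpMSC. Its tpMSC libraries were above all 9 others; it was higher than Control in tpMSC (1.10, SE 0.20, adjusted p = 0.00544), held under all 14 alternatives, and in MSC (0.83, adjusted p = 0.0155; lost without Control replicate 1 or 2). The rise in ALI (0.55, adjusted p = 0.0497) was lost under 8 of 14 alternatives, including no filter, only the 6 libraries, limma on FPKM and without Control replicate 1 or 2 or ALI replicate 1 or 3. Ccno rose over Control in ALI (1.20, adjusted p = 0.00389) and tpMSC (1.88, adjusted p = 0.00165), both held under all 14 alternatives, and in MSC (0.92, adjusted p = 0.0333; lost with no filter, with limma on log2(FPKM + 1), without any 1 Control library and without MSC replicate 1 or 2). Mcidas rose in tpMSC (1.47, adjusted p = 0.0232; lost without any 1 Control library or tpMSC replicate 1). Of 18 centriole amplification genes 3 were called higher and 3 lower in ALI. Plk4, the kinase that starts centriole duplication, rose by 0.88 (adjusted p = 0.000483). All 8 markers of cycling cells were called higher too, from a sum of 8.98 to 11.3 FPKM in Control to 32 to 46.3 in ALI.

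**Figure D5:**
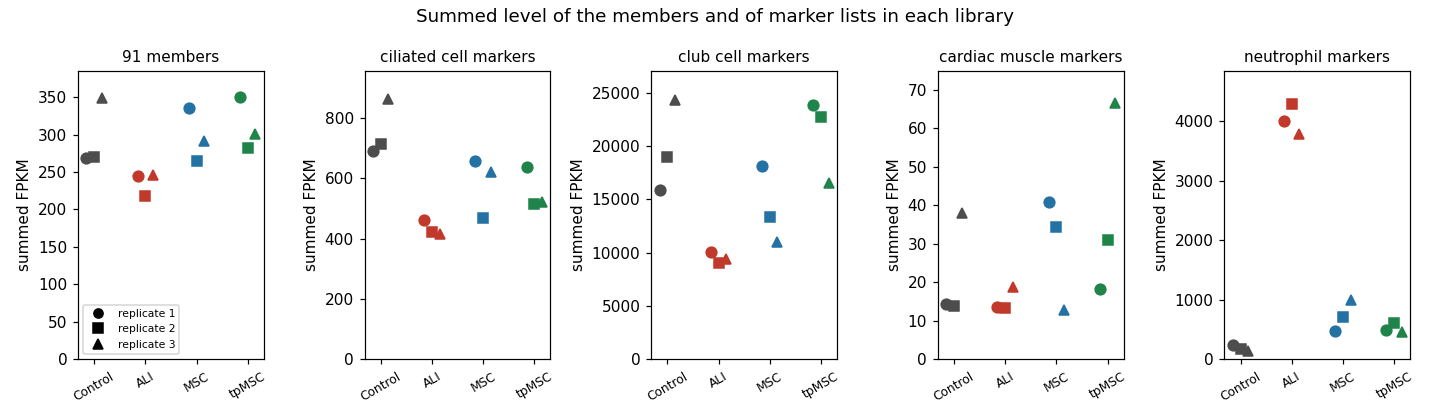
Summed FPKM (y axis, from 0) of the 91 members and of 4 marker lists in each library, by group (x axis), with the marker shape for the replicate. The members and the ciliated cell markers are lowest in ALI, the neutrophil markers are highest in ALI, and the cardiac markers are highest in tpMSC replicate 3.

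Marker genes of other cells moved in the same comparisons. The 19 ciliated cell markers summed to 689, 713 and 863 FPKM in Control, 460, 420 and 414 in ALI, 658, 468 and 619 in MSC and 637, 513 and 521 in tpMSC. Over all genes, 19.6% were called lower and 20.2% higher in ALI than Control. The shares called higher than ALI were 11.6% in tpMSC and 5.03% in MSC. Of the 19 ciliated cell markers, 2 were called lower in ALI and 1 higher. The median log2 fold change of these 19 against Control was -0.17 in ALI, 0.12 in MSC and 0.21 in tpMSC. In tpMSC against Control, 15 of the 19 estimates were above 0 and 4 below, although every tpMSC sum lay below every Control sum. The sums were led by abundant genes such as Tppp3, a tubulin-binding protein. Tppp3 was at 165 ± 15.6, 50.3 ± 6.15, 79.5 ± 15.0 and 104 ± 17.9 FPKM in Control, ALI, MSC and tpMSC. Its log2 fold change was -1.65 in ALI against Control (SE 0.15, adjusted p = 1.01e-05) and 1.02 in tpMSC against ALI (adjusted p = 0.000662). The 12 club cell markers summed to between 15900 and 24300 FPKM in Control, 9020 and 10100 in ALI, 11000 and 18100 in MSC and 16500 and 23900 in tpMSC, with 4 called lower and 3 higher in ALI. The club cell enzyme Cyp2f2 fell by 2.08 in ALI (SE 0.26, adjusted p = 8.92e-05) and rose by 1.5 after tpMSC (adjusted p = 0.00182). Hp, secreted haptoglobin and of the same list, rose by 1.67 in ALI (adjusted p = 1.29e-05), and the list's median in ALI against Control was 0.09. The 8 alveolar type 2 cell markers summed to 16500 to 17800 FPKM in Control and 9340 to 13300 in ALI. Their sums were 14100 to 14900 FPKM in MSC and 12900 to 15700 in tpMSC. In ALI 3 of these 8 were called lower and 2 higher, with a median of 0.02. The 8 neutrophil markers summed to between 143 and 237 FPKM in Control and 3780 and 4280 in ALI, and to between 464 and 987 in the treated groups; all 8 were called higher in ALI. The 8 cardiac muscle markers summed to between 13.4 and 18.7 FPKM in ALI and reached 38.1 in Control replicate 3 and 66.7 in tpMSC replicate 3; all 7 tested had estimates above 0 in tpMSC against ALI (median 1.02), with 2 called. The 7 basal airway cell markers summed to 0.99 to 1.78 FPKM in Control and 5.11 to 6.12 in ALI, with 3 called higher. Cartilage markers were near 0 in every library (sum at most 0.77 FPKM; 4 of 11 listed at 0 in all Control libraries and 5 of 11 in all ALI libraries). The 6 mesothelium markers summed to 139 to 176 FPKM in Control, 126 to 151 in ALI, 157 to 216 in MSC and 169 to 229 in tpMSC; 2 were called higher in tpMSC than ALI (median 0.95) and 1 in MSC than ALI (median 0.87). The 6 testis markers in the table summed to 5.14 to 6.87 FPKM. The part of these cells in the members' values was not tested.

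The members are spread over 20 chromosomes, with at most 11 on 1 chromosome, in the GENCODE annotation of GRCm38 (90 of 91 matched by Ensembl identifier). 8 members share over 20% of their exon bases with another annotated gene: Cfap119, Cfap298, Cfap68, Cfap92, Dnaaf1, Dnaaf2, Dnaaf4 and Tekt2. Being called did not go with higher counts: the 32 members called in at least 1 comparison had a median of 644 counts per library and the 57 called in none a median of 798.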

How the data were processed

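Lung poly(A) RNA of 12 libraries was sequenced as 150-base pairs with a dUTP second strand, per the labels' protocols. Per the submitters' processing notes, the tools were cutadapt 1.9, HISAT2 2.0.4, StringTie 1.3.4d, DESeq2 and edgeR with GRCm38; the sources used here do not state the role of each, the annotation or the strand setting. Deposited by the authors were a count and an FPKM value per gene and library. The gene positions in that table mostly differ from GRCm38 (2 of 90 members matched), so printed positions come from GENCODE M21. Counts were fitted over all 12 libraries with edgeR 4.0.16 (R 4.3.3; filterByExpr, TMM, quasi-likelihood F-test, adjusted over 22915 genes, prior count 2 for log2 CPM); SE is the absolute log2 fold change over the root of F. Alternatives used DESeq2 1.42.0, limma 3.58.1, other filters and each library left out. The script was tested on simulated data. Members, gene lists and the rule for named genes were chosen with earlier results of these data known. Named were members called (at most 12 per direction and comparison by p), the 10 with the highest FPKM, defining subunits, extremes and up to 3 genes of each list; other called members and Foxj1, Ccno, Mcidas were added after their values were seen. FPKM gives no depth of its own; the depth is that of the counts.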

Additional observations from a re-analysis of the deposited data

How the results depend on the processing

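Of the 49 calls of members, 10 held under every alternative and 0 changed direction. Every median log2 fold change moved by less than 0.19, the SD of the member median between libraries. That SD is larger than the medians of MSC and tpMSC against Control and of tpMSC against MSC. Leaving out 1 library put the median between -0.31 and -0.1 in ALI against Control. Against ALI it lay between 0.19 and 0.39 in MSC and between 0.32 and 0.49 in tpMSC. Against Control it lay between -0.06 and 0.18 in MSC and between 0.05 and 0.25 in tpMSC. In tpMSC against MSC it lay between -0.03 and 0.19. Reading the selection as rows with protein_coding alone (added after the data were seen; 24 tested) left 4 lower in ALI and 4 higher in tpMSC than ALI, and 0 in every other count. Leaving out 1 library gave between 6 and 19 members lower and 0 and 2 higher in ALI than Control, 0 and 12 higher in MSC than ALI, 6 and 18 higher in tpMSC than ALI, 0 and 3 higher and 0 and 3 lower in MSC than Control, and 0 and 7 higher and 1 and 3 lower in tpMSC than Control. The members higher in ALI than Control were 1 with a filter of 1 FPKM and 1 with limma on log2(FPKM + 1) or log2(FPKM + 0.1). The members higher in MSC than ALI were 10 with DESeq2, 0 with no filter, 6 with a filter of 1 FPKM, 0 with only the 6 libraries compared and 2 with limma on log2(FPKM + 0.1). The members lower in tpMSC than ALI were 1 with DESeq2 and 1 with only the 6 libraries. Against Control, DESeq2 gave 2 higher and 3 lower in MSC and 6 higher in tpMSC; in MSC no filter gave 0 higher, a filter of 1 FPKM 3 lower, the 6 libraries alone 0 lower and limma on log2(FPKM + 1) 2 lower. The cause of these shifts was not tested.

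The labels do not pair libraries by replicate number. Over all genes tested, the correlation of deviations in the 18 same-number pairs ran from -0.108 to 0.104. 1 pair was over 0.1, and 4 of 12 libraries correlated best with their own number. Among the 89 members, replicate 2 was most often lowest in every group: for 47 in Control, 66 in ALI, 63 in MSC and 62 in tpMSC. The library most often highest was replicate 3 in Control and ALI and replicate 1 in MSC and tpMSC. Whether the replicate numbers pair libraries was not tested for the members alone. With the replicate number as a block, 4 members were higher in MSC than ALI, 1 was lower in tpMSC than ALI, and 3 were higher and 3 lower in MSC than Control; the other counts stayed within 1.5 times.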
